A study of Homo sapiens with 27 samples.

Results

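Genes that stretch over more than 300 kb of the genome were followed through knockdown of CPSF1 in 3 prostate cancer cell lines. A gene was included when its annotated span, from the smallest exon start to the largest exon end on 1 chromosome, was 300000 bp or more and when its mean level with the control hairpin was above 2 CPM (counts scaled to the size of the library) in at least 1 line. Of 20268 protein-coding genes in the table, 783 had such a span and 497 of these passed the level. All 497 are called long genes below, and 12461 genes that passed the same level with a shorter span served as the comparison. The long genes were thus selected on the level of the control libraries, which is given as a description. LNCaP (a hormone-sensitive line), LNCaP95 and 22Rv1 (both hormone-insensitive) were stably infected with lentivirus that expressed a non-targeting hairpin (CTRL sh) or either of 2 hairpins that target CPSF1, named CPSF1 sh1 and CPSF1 sh2. Infected cells passed puromycin selection, were plated at 500000 cells per well and harvested after 72 h. LNCaP and 22Rv1 cells grew in standard RPMI medium and LNCaP95 cells in the same medium without phenol red, so line and medium cannot be told apart. Each of the 9 groups had 3 libraries, which gave 27 in all. No source used here says whether the replicates came from separate infections, so p-values measure only the spread between these libraries.

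CPSF1 is the largest subunit of the cleavage and polyadenylation specificity factor, the complex that reads the AAUAAA signal (AATAAA in DNA) near the end of a transcript so that the RNA is cut and given its poly(A) tail. Introns of long genes are rich in sequences that resemble this signal. Base pairing of U1 small nuclear RNA with the 5′ splice site is known to keep the cleavage machinery from using them, a protection called telescripting, and loss of U1 leads to premature intronic cleavage, above all in long genes with large first introns. Very long genes are also known for slow transcription that takes hours to complete, for expression in neurons, and for lying at common fragile sites of the genome. The comparison asks whether the long genes changed otherwise than shorter genes when CPSF1 was lowered. The measurement was the sum of fragments over all exons of a gene, so neither the position of reads along a gene nor the use of an intronic poly(A) site can be read from it.

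The long genes had a median span of 436.9 kb, with the middle of the distribution between 354.5 and 596.9 kb and the largest at 2304.6 kb (CNTNAP2). Their exons summed to a median of 8.34 kb, compared with 4.12 kb in the shorter genes, and the largest annotated intron had a median of 117.4 kb against 8.98 kb. The span counts all annotated transcripts. A canonical transcript was found for 493 of the 497 genes, of which 419 also spanned 300 kb or more in that transcript, 74 did not, and 18 spanned under 100 kb. CLDN11 (15.8 kb in the canonical transcript), KCNS3 (54.3 kb) and SEMA6D (56.7 kb) are examples of long genes by annotation whose main transcript is short. Canonical first introns had a median of 57.2 kb in the long genes and 3.88 kb in the shorter ones. Bases A and T made up a median of 61.1% of the span compared with 54.7%, and the hexamer AATAAA occurred 1.05 times per kb on the transcribed strand compared with 0.718 times. Of 438 long genes whose first intron had at least 2000 bases, 296 (67.6%) held AATAAA on the transcribed strand within its first 2000 bases, and of 7656 such shorter genes 4300 (56.2%) did. These are matches to letters and not mapped poly(A) sites.

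The features behind the question are shown for the long genes with the largest rise and the largest fall in each line, with CHST11 shown for 22Rv1 in place of RALYL, which rose more and whose sequence is not printed here. For each gene the first 5′ splice site of the canonical transcript is given, with capitals for the last 3 exon bases and the first 6 intron bases that U1 can pair with. The first AATAAA of the same intron on the transcribed strand follows, with the hexamer in capitals. Coordinates are of GRCh37 and sequences run 5′ to 3′ along the transcript.
MAP2 5′ splice site (chr2:210288998-210289027, plus strand): CAGGTAAGAgaccgtccccacctctggctc
MAP2 first AATAAA (chr2:210289537-210289566, plus strand): aggaaaatgaaaAATAAAtgcctggtggtg
TTC6 5′ splice site (chr14:38065211-38065240, plus strand): CAGGTGAGTcacagcaccggtttatatctt
TTC6 first AATAAA (chr14:38065916-38065945, plus strand): tccttaagtaacAATAAAataaaatctaaa
ARHGAP6 5′ splice site (chrX:11682334-11682363, minus strand): GAGGTAGGGaccagcgctgcgcgtcccacg
ARHGAP6 first AATAAA (chrX:11680430-11680459, minus strand): ctggttttgtttAATAAAggccaagatatc
FAM13A 5′ splice site (chr4:89978062-89978091, minus strand): TGTGTAAGTataggccttcttctgtcttct
FAM13A first AATAAA (chr4:89977509-89977538, minus strand): cacagtagcattAATAAAtaacactgaaat
CHST11 5′ splice site (chr12:104851305-104851334, plus strand): CAGGTAGGGggcgcgttagcgtggttttgt
CHST11 first AATAAA (chr12:104852671-104852700, plus strand): cgatggcagaggAATAAAgctgttctttcc
CLSTN2 5′ splice site (chr3:139654323-139654352, plus strand): AAGGTGGGTgctggggaagtttgctcttct
CLSTN2 first AATAAA (chr3:139655851-139655880, plus strand): ggtgaagacaagAATAAAaaacaatgaact
The hexamer began at base 549 of an 83315-base first intron in MAP2, at base 1914 of 409533 in ARHGAP6 and at base 1376 of 144376 in CHST11, which rose. It began at base 715 of 10654 in TTC6, at base 563 of 27288 in FAM13A and at base 1538 of 240467 in CLSTN2, which fell. These 6 genes are examples, and no comparison of rising with falling genes is drawn from them.

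Total counts per library ranged from 8515624 to 15904518, with a median of 11058723, and long genes received between 1.77 and 2.35% of them. The hairpins lowered CPSF1 in every line, by a log2 fold change of -0.65 (SE 0.056, adjusted p = 1.68e-07, edgeR with Benjamini-Hochberg adjustment) in LNCaP, -0.89 (SE 0.079, adjusted p = 1.31e-06) in LNCaP95 and -0.50 (SE 0.062, adjusted p = 9.66e-05) in 22Rv1. All 12 markers of luminal prostate epithelium exceeded 2 CPM in each line. A pair of libraries stood apart. In CPSF1 sh1 replicate 3 of LNCaP, all 102 genes that exceeded 20 CPM in every 22Rv1 control library and stayed under 0.3 CPM in every LNCaP control library were above 0.5 CPM, and their summed level was 6.58% of that in 22Rv1 controls. In the same kind of comparison between all pairs of lines, no other value exceeded 1.08%. Of those 102 genes 14 are long genes, for example CLDN11, which had 3.99 CPM in that library and at most 0.251 CPM in the other LNCaP libraries. In CPSF1 sh1 replicate 3 of 22Rv1, long genes as a class were lower than in the other 22Rv1 libraries, as described below. The main counts over the long genes are also given without these libraries. In bulk RNA, fewer cells of a type and less RNA per cell cannot be told apart.

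Among the lines, LNCaP95 cells showed the largest excess of higher long genes. A gene was tested in a line when each of its 9 libraries exceeded 2 CPM, which left 351 long genes in LNCaP, 345 in LNCaP95 and 424 in 22Rv1. In LNCaP95, 178 of the 345 (51.6%) were higher with CPSF1 shRNA than with CTRL sh at an adjusted p-value below 0.05, where 33.2% of all genes tested were, and 77 (22.3%) were lower, where 33.7% were. In LNCaP, 109 of the 351 (31.1%) were higher against 31.1% of all genes, and 124 (35.3%) were lower against 31%. In 22Rv1, 64 of the 424 (15.1%) were higher against 12.7% of all genes, and 90 (21.2%) were lower against 14.3%. Without CPSF1 sh1 replicate 3 of 22Rv1, 101 of 427 long genes were higher against 18.9% of all genes and 100 were lower against 20.2%. Leaving out CPSF1 sh1 replicate 3 of LNCaP gave 111 higher (30.8% of all genes) and 123 lower (31.1%).

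**Figure D1:**
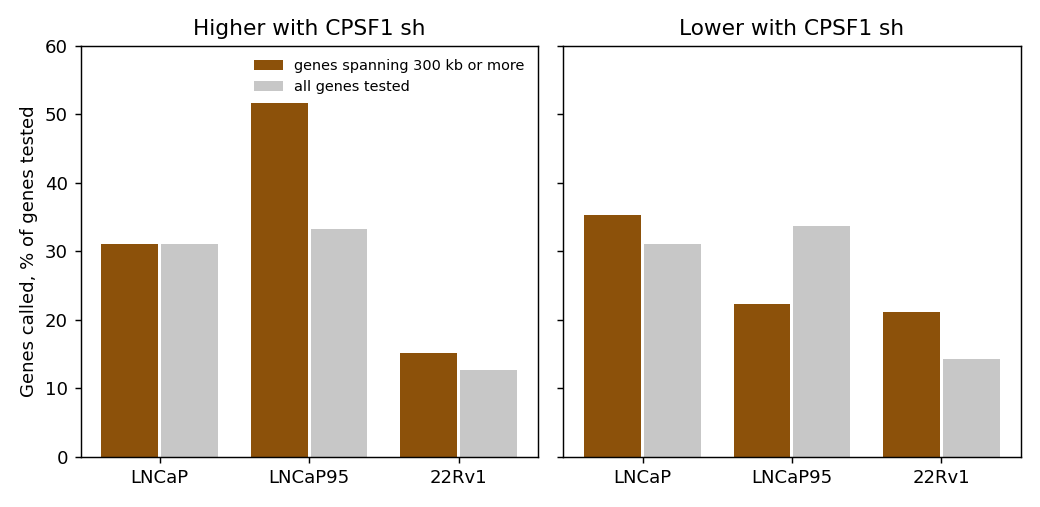
Share of genes called higher (left) or lower (right) with CPSF1 shRNA in each line, as a percentage of the genes tested, for genes spanning 300 kb or more (brown) and all genes tested (grey). The LNCaP95 bars differ most, with 51.6% of long genes higher against 33.2% of all genes and 22.3% lower against 33.7%.

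Full separation of the libraries was counted as well. All 6 CPSF1 shRNA libraries lay above all 3 controls for 166 of the 345 long genes in LNCaP95 (29.8% of all genes tested) and below them for 70 (30.3%). The numbers were 99 above (27.9%) and 113 below (27.7%) of 351 in LNCaP, and 48 above (13%) and 97 below (15.2%) of 424 in 22Rv1. In 22Rv1 the 48 made up 11.3% of the long genes, a smaller share than that of all genes. With CPSF1 sh1 replicate 3 of 22Rv1 left out, the share was larger than that of all genes, with 104 of 427 long genes above (24.4% against 18.6%) and 99 below (23.2% against 20%). In LNCaP without its CPSF1 sh1 replicate 3, 103 of 351 lay above (28.8% of all genes) and 122 below (29.3%).

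Long genes were expressed at lower levels than shorter genes, so their change was also set against shorter genes of equal level. For each long gene, the median change of the shorter genes in the same of 10 classes of the long genes' control level was subtracted from its own log2 change, and the median over the long genes is called the level-matched difference. It was 0.14 in LNCaP95, where 210 of 345 long genes lay above their matched genes and 135 below. In LNCaP it was -0.018 (167 above and 184 below), and in 22Rv1 it was -0.021 (201 above and 223 below). The median change of the long genes before matching was 0.21, -0.030 and -0.014 in the same order, and that of all genes tested was 0.0013, -0.00036 and -0.0024.

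Single libraries showed how firm these medians were. Each CPSF1 shRNA library was compared with the mean of its controls, and each control with the other 2. In LNCaP95, the level-matched difference was 0.11, 0.17 and 0.13 in the libraries with CPSF1 sh1, 0.16, 0.14 and 0.12 in those with CPSF1 sh2, and 0.0028, 0.038 and -0.049 in the controls, so the groups did not overlap. In LNCaP, values were -0.045, -0.010 and -0.034 with CPSF1 sh1 and -0.055, -0.0054 and -0.0094 with CPSF1 sh2, next to 0.0065, -0.0010 and -0.0055 in the controls. The knockdown libraries of LNCaP thus reached up to the lowest control. In 22Rv1, they were 0.026, -0.036 and -0.20 with CPSF1 sh1 and 0.022, -0.018 and 0.0082 with CPSF1 sh2, while the controls gave 0.0054, 0.0012 and -0.012. The value of -0.20 is that of the library that stood apart. Without it, the difference for CPSF1 sh1 in 22Rv1 turned from -0.063 to 0.0051 and that for both hairpins from -0.021 to 0.0066. Without CPSF1 sh1 replicate 3 of LNCaP, the difference in LNCaP was -0.012.

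**Figure D2:**
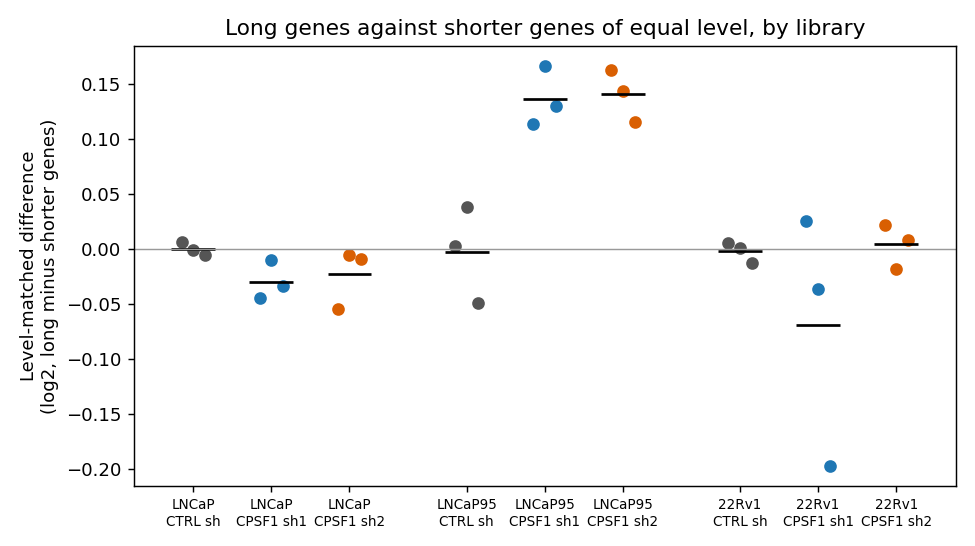
Level-matched difference of the long genes in each of the 27 libraries (points; log2 units, long genes minus shorter genes of equal control level), by line and hairpin, with a bar at the mean of 3 libraries. The 6 CPSF1 shRNA libraries of LNCaP95 sit between 0.11 and 0.17, above its controls, and CPSF1 sh1 replicate 3 of 22Rv1 sits at -0.20.

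The size of the LNCaP95 difference depended on how genes were matched and picked, and its direction did not under any of the alternatives tried. Matching on level and exonic length together, in 4 classes of each in place of 10 of level, gave 0.089. The coarser classes of level and the added length cannot be told apart in that value. A span of at least 500 kb in place of 300 kb gave 0.070. Matching on the mean level of all 9 libraries gave 0.19, and long genes whose canonical transcript itself spans 300 kb or more gave 0.17.

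The hairpins share their control libraries, so their values are set side by side. In LNCaP95, 181 long genes were higher with CPSF1 sh1 (33.1% of all genes tested) and 73 were lower (33.3%), while 176 were higher with CPSF1 sh2 (36.5%) and 88 were lower (36.9%). The level-matched difference was 0.14 and 0.15. In LNCaP, 103 were higher (31.2%) and 116 lower (31.3%) with CPSF1 sh1, and 112 were higher (32.1%) and 128 lower (32.5%) with CPSF1 sh2. In 22Rv1, 36 were higher (8.79%) and 76 lower (11.1%) with CPSF1 sh1, and 99 were higher (19.1%) and 94 lower (20.9%) with CPSF1 sh2. With CPSF1 sh1 replicate 3 left out, CPSF1 sh1 gave 72 higher (12.2%) and 75 lower (13.8%) in 22Rv1, and CPSF1 sh2 gave 116 higher (24.6%) and 119 lower (25.8%). In LNCaP without its CPSF1 sh1 replicate 3, CPSF1 sh1 gave 101 higher (30.1%) and 115 lower (30.3%).

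In LNCaP95, the change was higher for longer genes up to 600 kb, in classes that were not matched on level. The median log2 control CPM there was 5.75 from 30 to 100 kb and 4.62 from 400 to 600 kb. The median log2 change was -0.054 for the 2041 genes under 10 kb, -0.015 from 10 to 30 kb, 0.014 from 30 to 100 kb, 0.024 from 100 to 200 kb and 0.16 for the 398 genes from 200 to 300 kb. It went on to 0.20 for the 147 long genes from 300 to 400 kb and to 0.32 for the 126 from 400 to 600 kb, and was 0.13 for the 72 of 600 kb or more. LNCaP medians lay between -0.065 and 0.018 over the same classes and 22Rv1 medians between -0.036 and 0.011. Without the library of each that stood apart, the ranges were -0.088 to 0.017 and -0.036 to 0.041. The classes just under and just above 300 kb had close medians in LNCaP95. HSD17B12 (300174 bp) and COBL (300606 bp) were just inside the cut on span, and PCBP3 (298760 bp) and JMJD1C (298741 bp) just outside. For the cut on level, LRRC4C (2.01 CPM in its highest line) and HDAC9 (2.03 CPM) were just inside, and PLCL1 (1.99 CPM) and CDH18 (1.99 CPM) just outside.

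**Figure D3:**
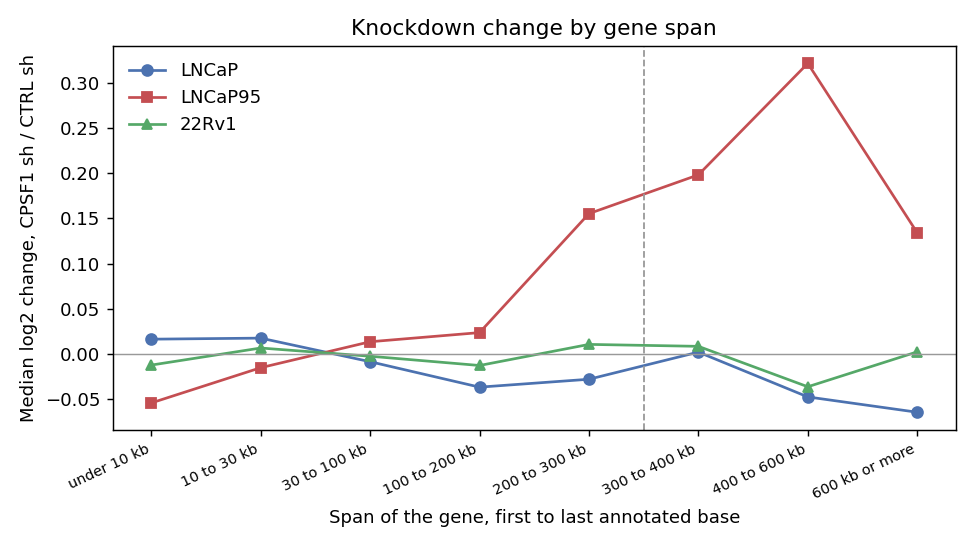
Median log2 change with CPSF1 shRNA (6 libraries) against CTRL sh (3 libraries) for all genes tested, by class of gene span, in LNCaP (circles), LNCaP95 (squares) and 22Rv1 (triangles); the dashed line marks 300 kb. LNCaP95 rises from -0.054 under 10 kb to 0.32 at 400 to 600 kb, and the other lines stay between -0.065 and 0.018. The classes were not matched on level.

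Among the long genes themselves, those of low control level had the highest changes in LNCaP95. There the 115 with the lowest control levels (median 6.51 CPM) had a median log2 change of 0.58, with 80 higher and 10 lower. The 115 of middle level (median 25.5 CPM) had 0.19, and the 115 of highest level (median 84.7 CPM) had -0.058, with 42 higher and 47 lower. Control values enter both the level and the change, which by itself tilts such a comparison. In LNCaP the 117 lowest had a median of 0.16, with 46 higher and 27 lower, and the 117 highest had -0.057, with 32 higher and 50 lower. In 22Rv1 the medians were 0.0033 and -0.029, and without CPSF1 sh1 replicate 3 they were 0.0067 and 0.0030. Long genes with a canonical transcript of 300 kb or more had a higher median change than the rest in LNCaP95, at 0.25 in 286 genes against 0.031 in 56. The medians were -0.010 in 290 genes against -0.13 in 58 in LNCaP, and 0.0019 in 354 against -0.14 in 67 in 22Rv1. Omitting CPSF1 sh1 replicate 3 of 22Rv1 gave medians of 0.019 in 356 genes against -0.10 in 68. The largest intron divided the LNCaP95 genes less, since the medians were 0.20, 0.19 and 0.27 from the smallest to the largest.

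The largest rise in LNCaP was that of MAP2, which encodes a microtubule-binding protein of neuronal dendrites and lies at chromosome 2, 210288782 to 210598842. It had 4.51, 5.02 and 4.39 normalized CPM with CTRL sh, 34.0, 34.2 and 49.6 CPM with CPSF1 sh1, and 39.0, 42.9 and 40.6 CPM with CPSF1 sh2. The highest value was in the library that carried 22Rv1 genes, and MAP2 had 165 to 174 CPM in 22Rv1 controls. The log2 fold change was 3.11 (SE 0.15, adjusted p = 4.11e-10) and 3.04 without that library. In LNCaP95 the gene started at 115, 128 and 115 CPM and reached 159 to 174 CPM, a log2 fold change of 0.48 (adjusted p = 4.35e-06, edgeR), and in 22Rv1 the change was -0.085 (adjusted p = 0.35). The control level in LNCaP was thus far under that in the other lines, and the knockdown level stayed under it too.

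The other large rises in LNCaP belonged to ZNF385B, a zinc finger protein, GPC6, a glypican of the cell surface, TMTC2, a mannosyltransferase of the endoplasmic reticulum, and IGF1R, the receptor for insulin-like growth factor 1. ZNF385B went from 13.8, 15.7 and 14.1 CPM to between 41.6 and 55.6 CPM (log2 fold change 1.75, SE 0.10, adjusted p = 2.96e-09). GPC6 went from 5.35, 6.95 and 6.05 CPM to between 17.7 and 22.1 CPM (1.73, SE 0.11, adjusted p = 5.10e-09). TMTC2 went from 23.1, 25.4 and 25.3 CPM to between 76.8 and 85.9 CPM (1.72, SE 0.056, adjusted p = 1.68e-11). IGF1R was at 39.9, 43.2 and 42.4 CPM in the controls and at 124 to 141 CPM with CPSF1 shRNA (1.66, SE 0.056, adjusted p = 1.92e-11). In none of these genes did the groups overlap in LNCaP.

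The largest fall in LNCaP was that of TTC6, a tetratricopeptide repeat protein at chromosome 14, 38065052 to 38510647. It had 151, 167 and 168 CPM with CTRL sh, 52.4, 48.8 and 54.8 CPM with CPSF1 sh1 and 49.8, 55.1 and 60.3 CPM with CPSF1 sh2 (log2 fold change -1.60, SE 0.057, adjusted p = 3.06e-11). TTC6 also fell in LNCaP95, from 66.3, 75.8 and 75.6 CPM to between 23.9 and 42.8 CPM (-1.13, adjusted p = 3.33e-05, edgeR), and in 22Rv1, from 46.3, 42.2 and 47.6 CPM to between 26.8 and 37.1 CPM (-0.41, adjusted p = 0.0036, edgeR). NLGN1, a neuroligin of synapses, had 13.4, 13.8 and 12.2 CPM in the LNCaP controls and 3.10 to 7.497 CPM with CPSF1 shRNA (-1.58, SE 0.20, adjusted p = 6.49e-06), the highest being the library with 22Rv1 genes. LUZP2, a leucine zipper protein, fell from 170, 164 and 156 CPM to between 50.2 and 59.9 CPM (-1.55, SE 0.049, adjusted p = 1.24e-11). HS6ST2, which sulfates heparan sulfate chains, and RUNX2, a transcription factor of bone formation, fell by 1.39 and 1.35 on the log2 scale (adjusted p = 2.98e-07 and 9.81e-06, edgeR).

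ARHGAP6, a GTPase-activating protein, rose most in LNCaP95. It had 2.53, 3.06 and 2.45 CPM with CTRL sh, 11.1, 11.2 and 8.57 CPM with CPSF1 sh1 and 17.6, 19.6 and 19.5 CPM with CPSF1 sh2 (log2 fold change 2.43, SE 0.32, adjusted p = 2.59e-05). The hairpins did not overlap either, and the change was 0.87 larger with CPSF1 sh2 (SE 0.11, adjusted p = 3.63e-06). In LNCaP, ARHGAP6 fell from 103, 104 and 98.9 CPM to between 76.9 and 88.5 CPM (-0.33, adjusted p = 3.54e-05, edgeR). Its level in LNCaP95 controls was therefore far under that of LNCaP and 22Rv1 controls, and it stayed under them after knockdown.

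TLN2, which encodes a talin that links integrins to actin, had 3.26, 3.59 and 2.84 CPM in LNCaP95 controls and between 15.7 and 19.98 CPM with CPSF1 shRNA (log2 fold change 2.42, SE 0.13, adjusted p = 2.76e-08). NAV2, a neuron navigator protein, went from 3.62, 4.40 and 5.20 CPM to between 14.8 and 15.5 CPM with CPSF1 sh1 and between 23.9 and 28.9 CPM with CPSF1 sh2 (2.25, SE 0.29, adjusted p = 2.15e-05). SEMA6D, a transmembrane semaphorin, went from 8.10, 11.5 and 8.92 CPM to between 25.6 and 56.2 CPM (2.04, SE 0.31, adjusted p = 9.28e-05). HTR2C, a serotonin receptor, rose from 3.04, 3.86 and 3.33 CPM to between 10.9 and 13.5 CPM (1.81, SE 0.12, adjusted p = 1.82e-07). In each of them all knockdown libraries lay above all controls.

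FAM13A, a protein with a GTPase-activating domain, showed the largest fall in LNCaP95. It had 304, 282 and 271 CPM with CTRL sh, 95.4, 104 and 89.0 CPM with CPSF1 sh1 and 61.8, 56.2 and 54.8 CPM with CPSF1 sh2 (log2 fold change -1.89, SE 0.17, adjusted p = 1.66e-06). CAMK2D, the delta chain of calcium/calmodulin-dependent kinase II, fell from 29.1, 26.4 and 24.2 CPM to between 7.09 and 13.8 CPM (-1.33, SE 0.17, adjusted p = 1.72e-05). FRMD4B, a scaffold protein, and RORA, a nuclear receptor, fell by 1.27 and 1.16 on the log2 scale (adjusted p = 7.08e-07 and 7.89e-06, edgeR). None of these falls showed overlap between knockdown and control libraries.

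In 22Rv1 cells, changes were smaller. RALYL, an RNA-binding protein gene on chromosome 8, rose from 5.19, 3.85 and 5.92 CPM to 13.0, 12.8 and 11.3 CPM with CPSF1 sh1 and to 17.3, 20.3 and 21.6 CPM with CPSF1 sh2 (log2 fold change 1.69, SE 0.23, adjusted p = 1.66e-04). It rose in LNCaP as well, from 5.35, 7.03 and 5.35 CPM to between 11.003 and 15.7 CPM (1.13, adjusted p = 9.23e-06, edgeR). CHST11, a chondroitin sulfotransferase, went from 3.38, 2.75 and 3.39 CPM to between 4.47 and 9.82 CPM (1.25, SE 0.24, adjusted p = 0.0019). KCNH5, a potassium channel, TENM2, a teneurin of synapses, and SRGAP3, a GTPase-activating protein downstream of Slit and Robo, rose by log2 fold changes of 1.04, 0.99 and 0.97 (adjusted p = 0.019, 5.03e-04 and 7.92e-06, edgeR). The call of KCNH5 was lost when any of the 3 controls was left out.

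Falls in 22Rv1 were led by CLSTN2, a calsyntenin of synapses, which had 10.9, 9.17 and 8.78 CPM with CTRL sh, 6.91, 6.08 and 3.51 CPM with CPSF1 sh1 and 2.26, 2.82 and 3.33 CPM with CPSF1 sh2 (log2 fold change -1.21, SE 0.25, adjusted p = 0.0028). CLDN11, a claudin of tight junctions, fell from 56.2, 57.3 and 57.8 CPM to between 19.3 and 31.7 CPM (-1.19, SE 0.13, adjusted p = 2.73e-05). KCNS3, a modulatory subunit of potassium channels, and FGGY, a carbohydrate kinase, fell by 1.04 and 1.01 on the log2 scale (adjusted p = 4.55e-04 and 5.92e-04, edgeR). Without CPSF1 sh1 replicate 3 the changes of these genes, and of those named as rising in 22Rv1, kept their direction and stayed past the threshold.

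The functional groups of long genes are described by their counts, and no test compared them with each other or with the other long genes. A gene can be on more than 1 list, and some genes on a list fall outside its name. The counts are to be read against the shares of all genes tested and of all long genes. In LNCaP95, 33.2% of all genes and 51.6% of long genes were higher, and 33.7% and 22.3% were lower. In LNCaP, 31.1% of each were higher, and 31% of all genes and 35.3% of long genes were lower. In 22Rv1, 12.7% and 15.1% were higher, and 14.3% and 21.2% were lower. Regulators of small GTPases, which switch these signalling proteins off or on, had 25 members tested in LNCaP95, of which 17 rose and 3 fell (median log2 change 0.30). In LNCaP, 5 of 26 rose and 11 fell (median -0.0042), and in 22Rv1 8 of 32 rose and 5 fell (median 0.011). Genes of cell adhesion and synapse organisation had 9 of 15 higher and 2 lower in LNCaP95 (median 0.44), among them CNTNAP2, NRXN3, ROBO1 and TENM2, against 3 higher and 4 lower of 15 in LNCaP (median -0.065) and 8 higher and 6 lower of 31 in 22Rv1 (median 0.0013). Ion channels, calcium handling genes and solute carriers had 9 of 13 higher and 2 lower in LNCaP95 (median 0.56). LNCaP had 7 higher and 5 lower of 15 (median 0.13), and 22Rv1 had 3 higher and 5 lower of 22 (median 0.021). The higher calls in LNCaP95 include the carriers SLC39A11, SLC44A5 and SLC4A4. CAMTA1, a transcription activator also on this list, was lower in LNCaP95 and LNCaP.

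Genes of vesicle transport and endocytosis had none of 15 higher and 10 lower in LNCaP (median -0.21), where 31.1% of all genes were higher and 31% lower, among them EXOC4 of the exocyst, COG5 of the Golgi tethering complex and TRAPPC9. The 10 also include KIAA1217, whose place in vesicle transport is not established. In LNCaP95 5 of the 15 rose and 2 fell (median 0.049), and in 22Rv1 1 of 18 rose and 5 fell (median 0.0010). Transcription factors and chromatin regulators had 17 higher and 11 lower of 33 in LNCaP95 (median 0.26), 9 higher and 14 lower of 31 in LNCaP (median -0.099), and 5 higher and 8 lower of 39 in 22Rv1 (median -0.012). Cytoskeletal genes had 18 higher and 11 lower of 35 in LNCaP95 (median 0.16) and 9 higher and 14 lower of 35 in LNCaP (median -0.11). In 22Rv1 they had 3 higher and 10 lower of 36 (median -0.17). The cytoskeletal list also holds the adhesion gene SDK1, called higher in LNCaP and LNCaP95, and the ATPase gene SPATA5, called higher in LNCaP95.

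Genes at common fragile sites had 9 higher and 6 lower of 19 in LNCaP95 (median 0.27), where 33.2% of all genes were higher and 33.7% lower, 4 higher and 6 lower of 18 in LNCaP (median -0.071), and 3 higher and 4 lower of 22 in 22Rv1 (median -0.080). Kinases and phosphodiesterases had 6 higher and 7 lower of 20 in LNCaP95 (median -0.019), 8 higher and 7 lower of 22 in LNCaP (median 0.13), and 8 higher and 4 lower of 23 in 22Rv1 (median 0.052). These counts include CAMKMT and CDKAL1, which are neither. In both LNCaP and LNCaP95, CAMKMT was called higher and CDKAL1 lower. Enzymes of metabolism and glycans had 13 higher and 6 lower of 30 in LNCaP95 (median 0.091), 8 higher and 13 lower of 31 in LNCaP (median -0.080), and 4 higher and 6 lower of 33 in 22Rv1 (median 0.014). Genes of the ubiquitin system, RNA processing and DNA repair had 6 higher and 4 lower of 14 in LNCaP95 (median 0.23), 9 higher and 3 lower of 15 in LNCaP (median 0.28), and 2 higher and 2 lower of 12 in 22Rv1 (median 0.013). The phosphatase PTPRN2 was also on that list and among its higher calls in LNCaP and 22Rv1. Receptor-type protein tyrosine phosphatases were few. PTPRG, PTPRM and PTPRN2 were higher in LNCaP and none of the 4 was lower, PTPRG and PTPRK were higher and PTPRM lower in LNCaP95, and PTPRN2 was higher in 22Rv1, where 3 were tested. The 201 long genes on no list had 76 higher and 29 lower of 143 in LNCaP95 (median 0.21), 49 higher and 45 lower of 144 in LNCaP (median -0.0083), and 21 higher and 41 lower of 175 in 22Rv1 (median -0.029).

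The 22Rv1 counts of these groups depended on CPSF1 sh1 replicate 3. Without it, 18.9% of all genes tested were higher and 20.2% lower. Vesicle transport went from 1 to 5 genes higher, with 5 lower in both cases. Regulators of small GTPases had 11 higher and 5 lower, adhesion and synapse genes 9 and 7, the group of channels, calcium genes and carriers 4 and 5, and transcription factors and chromatin regulators 9 and 10. Cytoskeletal genes had 5 higher and 11 lower, fragile site genes 5 and 5, kinases and phosphodiesterases 9 and 4, metabolism and glycan enzymes 8 and 6, and the ubiquitin, RNA processing and repair group 3 and 2. Of the phosphatases 2 were higher, and the genes on no list had 36 higher and 47 lower of 177. The LNCaP counts that moved when CPSF1 sh1 replicate 3 of LNCaP was left out were those of GTPase regulators (5 higher and 9 lower), kinases (8 and 8) and genes on no list (51 and 45).

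A list of 38 factors of long gene transcription and telescripting that are not long themselves, such as the U1 protein SNRPC, the topoisomerase TOP1 and the kinase CDK12, moved in both directions. In LNCaP 15 of them were higher (31.1% of all genes tested) and 9 lower (31%). The numbers were 9 (33.2%) and 15 (33.7%) in LNCaP95, and 6 (12.7%) and 7 (14.3%) in 22Rv1. CDK12, and SCAF8 and PHF3, which bind RNA polymerase II, were lower in all 3 lines. Of 20 cleavage and polyadenylation factors, 9 were higher and 3 lower in LNCaP. LNCaP95 had 11 higher and 4 lower, and 22Rv1 had 4 and 3, to be read against the same shares. That list includes CPSF1, the target of the hairpins, which was among the lower calls in each line. It also includes FIP1L1, a long gene by annotation whose canonical transcript spans 83.2 kb, which was higher in each line.

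Markers of other cell types moved in both directions in LNCaP95. The summed level of 12 neuroendocrine and neuronal markers was 180.3 to 213.6 CPM with CTRL sh, 70.2 to 86.9 CPM with CPSF1 sh1 and 46.7 to 58.5 CPM with CPSF1 sh2. Of these 12, 3 exceeded 2 CPM in the controls and 2 after knockdown, and STMN2 was at 0 in each group. The marker ENO2, a neuronal enolase, was called lower, and it was the only call among the 2 tested. Markers of fibroblasts summed to 115.5 to 138.2 CPM in the controls and to 143.1 to 170.8 CPM after knockdown, with DCN at 0 throughout. The 2 tested were called in opposite directions, VIM higher and COL1A1 lower. Basal markers, which include the long gene DST, summed to 57.1 to 62.6 CPM and then to 66.8 to 73.9 CPM. Again 2 were tested, with DST called higher and ITGB4 lower. Blood cell markers summed to 6.74 to 9.55 CPM and then to 17.4 to 37.4 CPM, where CD68, a lysosomal protein, was the only one of 8 tested and HBB was at 0 throughout. Luminal markers summed to 7430 to 7583 CPM in the controls and to 5318 to 5622 CPM after knockdown. All 12 were tested, and 6 were called lower and 2 higher (HOXB13 and EPCAM). In LNCaP the neuroendocrine and neuronal sum was 125.7 to 143.0 CPM in the controls and 58.6 to 89.6 CPM after knockdown. There too 2 of the markers were tested, and they were called in opposite directions, ENO2 lower and TUBB3, a neuronal tubulin, higher. In 22Rv1 the sum was 569.0 to 585.8 CPM and then 514.5 to 630.7 CPM, with 7 of the 12 tested, of which TUBB3 was higher and SYP and SNAP25 lower. Their part in the change of the long genes was not tested.

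The change of individual long genes often differed between lines. Of 296 long genes tested in all lines, 173 differed in change between LNCaP95 and LNCaP (50.9% of all genes tested), 134 between 22Rv1 and LNCaP (40.4%) and 163 between 22Rv1 and LNCaP95 (53.7%). The first pair had 135 with a higher change in LNCaP95 (26.7%) and 38 with a lower (24.1%), by the interaction in an edgeR fit of the 27 libraries. Compared with LNCaP95, 22Rv1 had a higher change for 42 (26.6%) and a lower change for 121 (27.1%). Between 22Rv1 and LNCaP, 68 were higher (20.4%) and 66 lower (20%). When CPSF1 sh1 replicate 3 of 22Rv1 was left out, 22Rv1 differed from LNCaP for 143 long genes (43.4%) and from LNCaP95 for 175 (55.4%). When CPSF1 sh1 replicate 3 of LNCaP was left out, LNCaP differed from LNCaP95 for 169 (49.8%) and from 22Rv1 for 131 (39.7%). In 33 of the 296 (11.1%) the gene was called higher in LNCaP95 and lower in LNCaP, as 4.64% of all genes tested in the 3 lines were. The reverse held for 9 (3.04%), against 4.89% of all genes. IGF1R went the other way: it fell in LNCaP95 from 416, 371 and 357 CPM to between 247 and 280 CPM (log2 fold change -0.52, adjusted p = 4.39e-06, edgeR), against the rise in LNCaP described above. In 22Rv1 IGF1R rose by 0.33 (adjusted p = 0.014, edgeR).

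**Figure D4:**
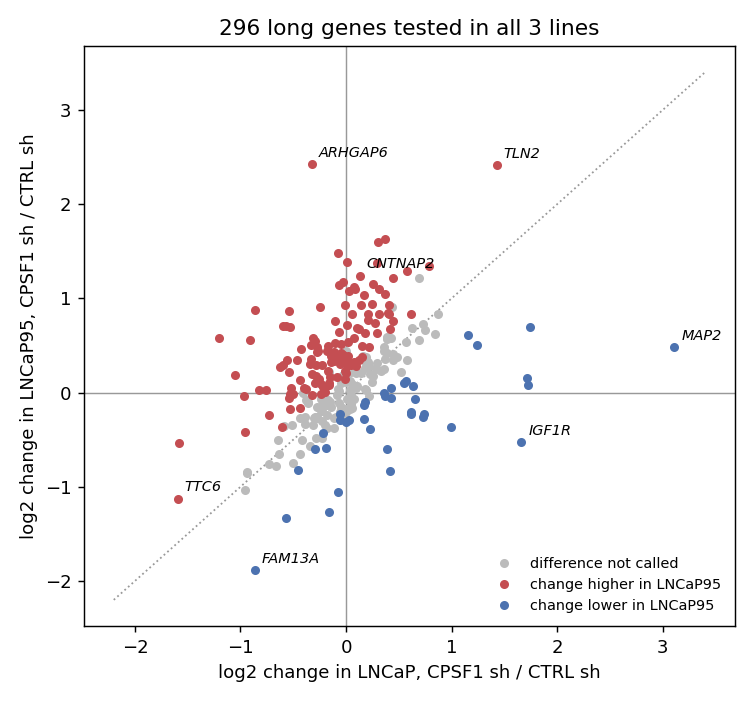
Log2 change with CPSF1 shRNA in LNCaP (x axis) and LNCaP95 (y axis) for the 296 long genes tested in all 3 lines; points are genes, the dotted line marks equal change, and colour marks genes whose change was called higher (135, red) or lower (38, blue) in LNCaP95 by the interaction test. Most coloured points lie above the dotted line, while MAP2 and IGF1R lie far to its right.

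Of the 296 long genes, 29 (9.8%) were called in the same direction in every line, near the 8.75% of all genes. There were 9 higher in all 3 lines (3.04%, against 3.85% of the 10317 genes tested in all lines) and 20 lower (6.76%, against 4.9%), while 56 (18.9%, against 14.4%) were higher in 1 line and lower in another. With CPSF1 sh1 replicate 3 of 22Rv1 omitted, 16 were higher in all lines (5.41%, against 5.47%), 21 were lower (7.09%, against 6.49%) and 64 went in different directions (21.6%, against 17.8%). The same numbers after omission of CPSF1 sh1 replicate 3 of LNCaP were 9 (3.86% of all genes), 21 (5.04%) and 55 (14.2%). Among the 9, SRGAP3 had 14.9, 14.9 and 17.2 CPM in LNCaP controls and 26.0 to 27.7 CPM with CPSF1 shRNA (log2 fold change 0.79). It went from 5.79, 5.75 and 5.98 CPM to between 13.0 and 17.0 CPM in LNCaP95 (1.35), and from 11.7, 10.5 and 11.4 CPM to between 19.97 and 23.5 CPM in 22Rv1. No knockdown library overlapped a control in any line. TLN2 rose by 1.43, 2.42 and 0.76 in LNCaP, LNCaP95 and 22Rv1, and RARB, a retinoic acid receptor, by 0.57, 0.54 and 0.56. ASCC3, a helicase of DNA repair and ribosome rescue, rose by 0.84, 0.63 and 0.35, MYO1D, a class I myosin, by 0.44, 0.41 and 0.30, and EHBP1, an endocytic adaptor, by 0.27, 0.74 and 0.30. In 22Rv1 some of these calls were lost when 1 library was left out. The call of ASCC3 was lost in 7 of the 9 omissions of 1 library, with any control, CPSF1 sh1 replicate 1 or any CPSF1 sh2 replicate left out (adjusted p = 0.056 to 0.115, edgeR). That of EHBP1 was lost without any of the 3 controls, and that of TLN2 without CTRL sh replicate 1 or CTRL sh replicate 2. Without CPSF1 sh1 replicate 3, ASCC3, EHBP1 and TLN2 kept the call (adjusted p = 4.58e-04, 8.5e-04 and 0.0043, edgeR).

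Of the 20 that were lower in all lines, CAMK2D had 110, 111 and 114 CPM in 22Rv1 controls and 49.2 to 67.5 CPM with CPSF1 shRNA. In LNCaP it had 30.3, 27.7 and 30.3 CPM in the controls and 15.6 to 25.9 CPM after knockdown. EXOC4, a subunit of the exocyst that spans 813.5 kb, had 144, 138 and 145 CPM in LNCaP controls and 66.5 to 79.9 CPM with CPSF1 shRNA (log2 fold change -0.95). Its controls were at 151, 146 and 140 CPM in LNCaP95, with 58.0 to 83.3 CPM after knockdown (-1.03), and at 128, 132 and 130 CPM in 22Rv1, with 84.2 to 102 CPM after knockdown (-0.51). Knockdown and control libraries of EXOC4 were apart in each line. FGGY had log2 fold changes of -0.63, -0.65 and -1.01, COMMD10, a COMM domain protein, of -0.67, -0.78 and -0.50, and SPAG16, a protein of the sperm axoneme, of -0.94, -0.86 and -0.42.

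**Figure D5:**
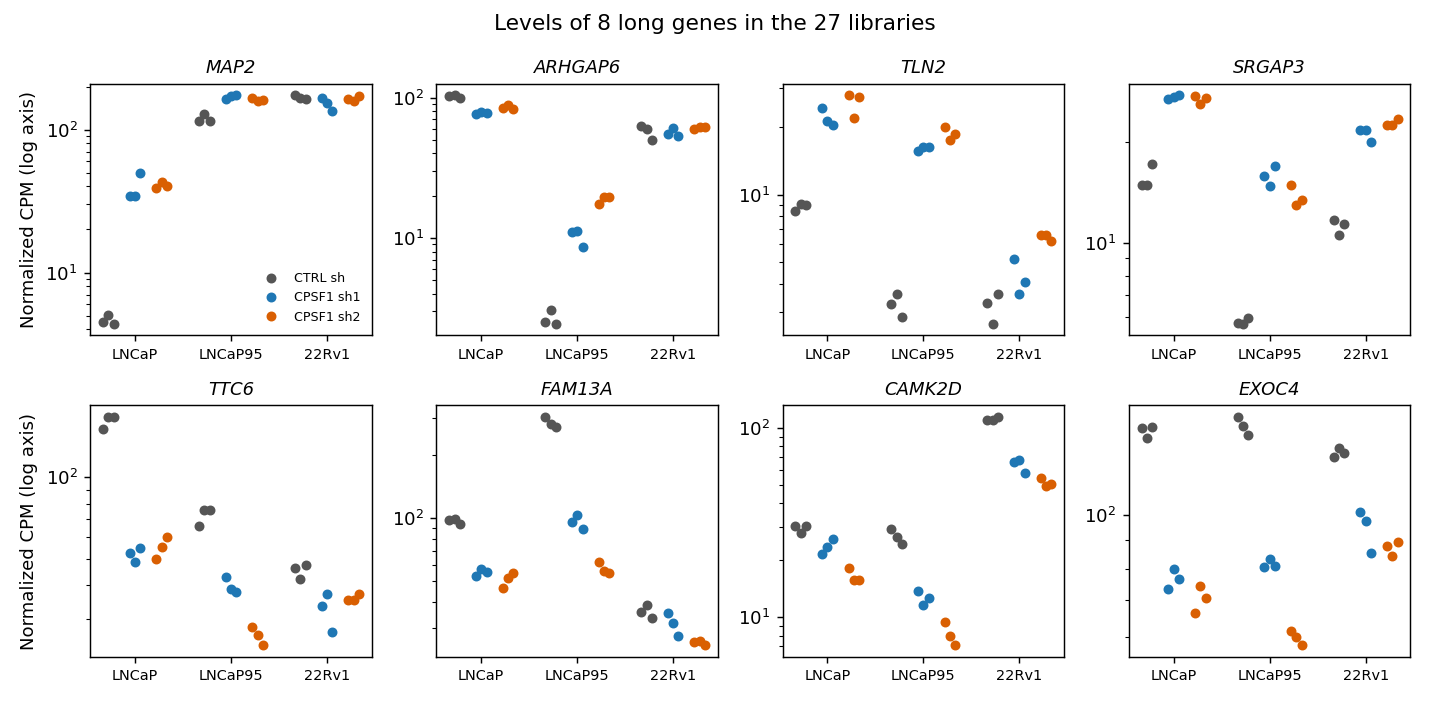
Normalized CPM (log axis) of 8 long genes in each of the 27 libraries, by line, with CTRL sh in grey, CPSF1 sh1 in blue and CPSF1 sh2 in orange. MAP2 starts at 4.39 to 5.02 CPM in LNCaP, far under the other lines, and ARHGAP6 at 2.45 to 3.06 CPM in LNCaP95. TLN2 and SRGAP3 were higher, and TTC6, FAM13A, CAMK2D and EXOC4 lower, in each line.

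The hairpins differed from each other for some long genes. In LNCaP95, 57 of 345 were higher with CPSF1 sh2 than with CPSF1 sh1 (16.5% of all genes tested) and 53 were lower (17.7%). In LNCaP the numbers were 18 (6.53%) and 17 (8.24%) of 351, and without its CPSF1 sh1 replicate 3 they were 21 (6.34%) and 16 (7.47%). In 22Rv1 they were 44 (5.47%) and 14 (5.85%) of 424, and without CPSF1 sh1 replicate 3 they were 40 (6.21%) and 24 (6.85%) of 427. The median difference of the long genes in 22Rv1 was 0.078 with that library and 0.014 without it.

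RUNX1, a transcription factor of blood formation, had 12.3, 13.2 and 12.7 CPM in LNCaP95 controls, 16.1, 17.3 and 16.3 CPM with CPSF1 sh1 and 33.4, 33.7 and 31.4 CPM with CPSF1 sh2. The hairpins differed by 0.99 on the log2 scale (SE 0.073, adjusted p = 5.70e-09). ANKS1B, a postsynaptic scaffold protein, had 14.6, 12.04 and 12.6 CPM with CTRL sh, 9.11, 12.5 and 8.64 CPM with CPSF1 sh1 and 4.09, 5.52 and 4.82 CPM with CPSF1 sh2 (difference -1.06, SE 0.16, adjusted p = 4.57e-05), and SEMA6D differed by 0.99 (SE 0.079). In LNCaP, FRAS1, an extracellular matrix protein, had 14.6, 20.6 and 18.6 CPM with CTRL sh, 17.1, 17.4 and 24.2 CPM with CPSF1 sh1 and 33.0, 34.4 and 32.5 CPM with CPSF1 sh2 (0.76, SE 0.11, adjusted p = 1.12e-04). CPSF1 sh1 therefore left FRAS1 within the controls, apart from the library that carried 22Rv1 genes. GPC3, a glypican, and RUNX2 differed by 0.60 and -0.59 in LNCaP (adjusted p = 0.0060 and 0.033, edgeR). The call of RUNX2 was lost without CPSF1 sh1 replicate 1 or 2 (adjusted p = 0.054 and 0.143, edgeR) and without CPSF1 sh2 replicate 1 or 3 (0.055 and 0.119). In 22Rv1, CDH12, a cadherin, KCNH5 and CLSTN2 differed by 0.98, 0.92 and -0.98 (adjusted p = 1.92e-04, 0.0037 and 0.016, edgeR). The call of CLSTN2 was lost without CPSF1 sh2 replicate 1 (adjusted p = 0.088, edgeR) or CPSF1 sh1 replicate 2 (0.061).

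Of the 5 longest genes, CNTNAP2, DLG2 and CSMD1 were called higher in at least 1 line. CNTNAP2, a neurexin-like adhesion protein that spans 2304.6 kb, had 6.73, 6.65 and 8.73 CPM in LNCaP95 controls and 15.9 to 19.7 CPM with CPSF1 shRNA (log2 fold change 1.24, SE 0.12, adjusted p = 2.26e-06). Its changes in LNCaP (0.13, adjusted p = 0.26) and 22Rv1 (-0.21, adjusted p = 0.13) did not pass the threshold in edgeR. DLG2, a synaptic scaffold of 2172.9 kb, rose by 0.75 in LNCaP (adjusted p = 1.40e-04, edgeR) and by 0.66 in LNCaP95 (adjusted p = 7.79e-05, edgeR), and its change in 22Rv1 was -0.34 (adjusted p = 0.18, edgeR). CSMD1, a complement-regulating membrane protein of 2059.6 kb, rose by 0.15 and 0.36 in the same lines. Without CPSF1 sh1 replicate 3 of 22Rv1, both also passed the threshold in 22Rv1, DLG2 at -0.45 (adjusted p = 0.029, edgeR) and CSMD1 at 0.19 (adjusted p = 0.0097, edgeR). MACROD2, which removes ADP-ribose from proteins, was tested only in 22Rv1, at 2.88, 2.84 and 2.64 CPM with CTRL sh and 2.51 to 3.04 CPM with CPSF1 shRNA. NPIPA7 belongs to a multicopy family, is annotated on both strands, and owes its span of 2061.9 kb to copies lying apart, so its values are uncertain. It fell by 0.38 in LNCaP (adjusted p = 4.62e-05, edgeR).

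Per kb of exon, the most abundant long genes were PPP3CA, CTNNA1, LIMCH1, SND1 and ACACA. PPP3CA, the catalytic chain of calcineurin, had 163 CPM per kb in LNCaP, 102 in LNCaP95 and 108 in 22Rv1 controls. Its log2 changes were small, at -0.16, 0.098 and 0.095, with adjusted p-values of 6.34e-04, 0.049 and 0.044 from edgeR, and the last 2 calls were lost in 12 and 11 of 18 alternatives, among them 7 and 8 of the 9 omissions of 1 library. LIMCH1, an activator of non-muscle myosin, rose in LNCaP from 856, 840 and 843 CPM to between 1103 and 1168 CPM (0.41, adjusted p = 6.22e-08, edgeR) and fell in LNCaP95 from 1156, 1174 and 1085 CPM to between 589 and 697 CPM (-0.83, adjusted p = 1.41e-07, edgeR). CTNNA1, the alpha catenin of adherens junctions, SND1, a nuclease of RNA silencing complexes, and ACACA, the acetyl-CoA carboxylase of fatty acid synthesis, fell in LNCaP95 by 0.29, 0.23 and 0.31 on the log2 scale. Only SND1 of these also passed the threshold in 22Rv1 (-0.16, adjusted p = 0.0039, edgeR), and none of the 3 did in LNCaP.

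Long genes near the detection limit were left out of the tests. Choosing genes by a control mean above 2 CPM and a library at or under it favours a lower mean after knockdown. Choosing them by a control mean of 2 CPM or less and a knockdown mean above it fixes a rise. Shorter genes were not counted in the same way, so the counts here are descriptions. In LNCaP, 29 long genes had a control mean above 2 CPM but at least 1 library at or under it, and 22 of these had a lower mean with CPSF1 shRNA. RORA (5.70 to 2.61 CPM), ANKS1B (5.14 to 2.14 CPM) and HYDIN, an axonemal protein (5.04 to 2.71 CPM), were the most abundant. In LNCaP95 there were 13 such genes, of which 4 had a lower mean, and PRDM16, a transcriptional regulator of fat cells, went from 12.5 CPM (SD 1.86, n = 3) to 3.13 CPM (SD 1.38, n = 6), while ADAMTS6, a metalloprotease, and COL23A1, a collagen, had 3.60 and 3.48 CPM in the controls. In 22Rv1 there were 26, of which 20 had a lower mean, with ZBTB20 and LARGE at 4.13 and 4.12 CPM in the controls. Conversely, 16 long genes in LNCaP, 27 in LNCaP95 and 5 in 22Rv1 had a control mean of 2 CPM or less and a knockdown mean above it. Examples chosen after their values were seen are NRCAM, a neuronal adhesion protein, at 1.17 CPM (SD 0.19, n = 3) in LNCaP95 controls, 8.15 CPM (SD 0.83, n = 3) with CPSF1 sh1 and 32.5 CPM (SD 1.25, n = 3) with CPSF1 sh2, and CTNNA2, the neuronal alpha catenin, at 0.67 CPM (SD 0.20, n = 3) in LNCaP controls and 6.25 CPM (SD 1.04, n = 6) with CPSF1 shRNA.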

How the data were processed

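Poly(A) RNA of 27 libraries (3 lines, 3 hairpins, 3 replicates) was sequenced with a stranded kit. The deposited table holds raw counts per gene, which the authors made by aligning reads to hg19 with HISAT2 (2.1.0) and counting fragments over exons with featureCounts of Subread (2.0.3 per the submitters' processing notes), using strand, with the GRCh37 annotation of Ensembl (87). Spans, exonic lengths and exon positions came from the coordinates in the same table, and canonical transcripts from GENCODE (44, mapped to GRCh37). Symbols on several chromosomes (8) were left out.

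Within each line, genes above 2 CPM in all 9 libraries were fitted with edgeR (4.0.16, R 4.3.3), with TMM scaling and the quasi-likelihood test, comparing 3 CTRL sh with 6 CPSF1 sh libraries. Hairpins were compared in a fit of 3 groups, and lines by interaction in a fit of all 27 libraries. P-values were adjusted over all genes tested (Benjamini-Hochberg, threshold 0.05). The level-matched difference is descriptive and carries no test. The scripts were tested on simulated data.

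The long genes, their functional lists and the tests were chosen with earlier results of these data known. Named are, per line, the 5 largest rises and falls without overlap of libraries, up to 6 genes called alike in all lines per direction, the 5 longest, the 5 most abundant per kb, the 3 largest differences per pair of lines and per pair of hairpins, the genes at the cuts, and the 3 most abundant that could not be tested. Some genes that meet these rules are not reported here.

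Alternatives were DESeq2 (1.42.0), the current quasi-likelihood form of edgeR, other scalings and filters, a replicate block, each library left out, hairpins averaged, other matching, span and level cuts, and the mean. Chosen after seeing the data were a canonical span of 300 kb, matching on exonic GC, a filter on CTRL sh alone, the check of line-specific genes, and the counts without the libraries that stood apart for full separation, functional lists, classes of span and level, and calls across lines.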

Additional observations from a re-analysis of the deposited data

Results flagged for a closer look

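The following differences between lines were the 3 largest called for each pair of lines, by the interaction in an edgeR fit of 27 libraries, with p-values adjusted over all genes tested. ARHGAP6 changed by 2.76 more on the log2 scale in LNCaP95 than in LNCaP (SE 0.27, adjusted p = 1.55e-09, edgeR) and had a difference of -2.39 in 22Rv1 relative to LNCaP95 (SE 0.278, adjusted p = 4.19e-08, edgeR). MAP2 differed by -2.61 in LNCaP95 relative to LNCaP (SE 0.153, adjusted p = 4.43e-14, edgeR) and by -3.18 in 22Rv1 relative to LNCaP (SE 0.15, adjusted p = 2.14e-15, edgeR). IGF1R differed by -2.17 between LNCaP95 and LNCaP (SE 0.101, adjusted p = 2.24e-16, edgeR), with opposite directions in the lines. Relative to LNCaP, the change in 22Rv1 differed by -1.74 for ZNF385B (SE 0.123, adjusted p = 5.87e-12, edgeR) and by -1.7 for TMTC2 (SE 0.144, adjusted p = 2.83e-10, edgeR). Relative to LNCaP95, it differed by -1.75 for KCNS3 (SE 0.221, adjusted p = 1.66e-07, edgeR), with opposite directions, and by -1.66 for TLN2 (SE 0.265, adjusted p = 6.54e-06, edgeR), which rose in both.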

How the results depend on the processing

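Over 36 counts and level-matched differences, 675 alternative values stayed close to the reported ones and 57 moved. A count was close within a set ratio of the reported one. A difference was close when it moved by less than the SD between its knockdown libraries. For CPSF1 sh1 in 22Rv1 that SD was 0.11 with the library that stood apart. The move from -0.063 to 0.0051 without that library thus counted as close. Over 108 values of named genes 2016 kept their call and direction, 47 lost the call, 3 gained it and 12 changed sign. The cause of these moves was not tested. Matching on level with exonic length or GC used 4 classes of each in place of 10 of level. The level-matched difference of LNCaP95 stayed above 0 in every alternative run. For both hairpins, CPSF1 sh1 and CPSF1 sh2 in that order, it was 0.19, 0.19 and 0.19 when matched on the mean of all libraries, 0.089, 0.058 and 0.073 when matched on level and exonic length, 0.070, 0.092 and 0.065 at a span of 500 kb, and 0.11, 0.11 and 0.10 above 5 CPM. With no filter on low counts it was 0.20 for both hairpins and 0.21 for CPSF1 sh2, with filterByExpr 0.17 for CPSF1 sh1, as a mean 0.17 for CPSF1 sh2, and with canonical spans 0.17 for both hairpins and 0.17 for CPSF1 sh2. The LNCaP difference changed sign among settings. For both hairpins it was 0.037 with no filter, -0.044 above 5 CPM and 0.020 as a mean. For CPSF1 sh1 it was -0.0038 with filterByExpr, 0.040 with no filter, 0.0020 matched on all libraries, 0.011 matched on exonic length, 0.016 as a mean and -0.0028 matched on exonic GC, and for CPSF1 sh2 -0.051 above 5 CPM and 0.022 as a mean. In 22Rv1 the CPSF1 sh2 value was -0.058 matched on exonic length, 0.028 and 0.036 at spans of 200 and 500 kb, and 0.027 with canonical spans. Fewer long genes were called lower with CPSF1 sh2 than CPSF1 sh1 in 22Rv1 by DESeq2 (8 against 14). More were in LNCaP with no filter (33 against 17). With filterByExpr, 206 long genes differed between 22Rv1 and LNCaP, against 134 in the main fit. Filters change which genes are tested, and shares of all genes were not counted for these alternatives, so these counts are not results about long genes.

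Leaving out each library in turn gave 34 to 101 higher and 58 to 103 lower long genes in 22Rv1, 20 to 72 higher with CPSF1 sh1, and 20 to 75 higher and 5 to 24 lower with CPSF1 sh2 than CPSF1 sh1. Against 64 higher in 22Rv1 with all libraries, 34 were called without CTRL sh replicate 1, 39 without replicate 2 and 34 without replicate 3. Without CPSF1 sh1 replicate 3, 101 were called, where 18.9% of all genes tested were. Shares of all genes were not counted for the other 22Rv1 omissions, so these ranges are not results about long genes. In LNCaP95 the level-matched difference was 0.12 to 0.17 for both hairpins, 0.11 to 0.16 for CPSF1 sh1 and 0.12 to 0.16 for CPSF1 sh2. Genes that changed sign were never called in the line concerned. NPIPA7 was at 0.013 in LNCaP95 with library size alone and between -0.14 and 0.066 in 22Rv1 with single libraries left out, turning without CTRL sh replicate 1. MACROD2 in 22Rv1 was at -0.0036 with filterByExpr, -0.0051 with no filter and between -0.029 and 0.033 with single libraries left out. ACACA in LNCaP was at 0.0071 with a filter on CTRL sh alone and between -0.036 and 0.025 with single libraries left out.

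Replicate numbers were not taken to pair the samples in the main fits, and counts with a replicate block are given beside them. In LNCaP, same-numbered libraries correlated above 0.1 in 3 of 9 pairs (highest 0.24), where none of 18 pairs with other numbers did (highest 0.066). An effect shared by replicate number in LNCaP is thus not excluded. LNCaP95 had 3 of 9 against 4 of 18, and 22Rv1 1 of 9 against 1 of 18. Of 9 libraries in each line, 6, 5 and 4 correlated best with one of their own number, although 9 pairs per line shared a number and 18 did not. With the replicate block, LNCaP had 109 long genes higher (30.8% of all genes tested) and 120 lower (30.5%). The numbers for LNCaP95 were 172 (31.6%) and 74 (31.9%), and those for 22Rv1 were 50 (10.2%) and 83 (12.3%). Of the named genes, ASCC3 in 22Rv1 (adjusted p = 0.064, edgeR) and PPP3CA in LNCaP95 (0.077) and 22Rv1 (0.079) lost the call under the block, and no other did. Low counts limit long genes near 2 CPM, many of which could not be tested.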
